A study of Arabidopsis thaliana with 16 samples.

Results

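The SWEET genes encode sugar carriers in plant membranes. Transcripts of 10 Arabidopsis thaliana SWEET genes were followed in whole rosettes of autophagy mutants and wild type. The members were SWEET1, SWEET2, SWEET4, SWEET10, SWEET11, SWEET12, SWEET13, SWEET15, SWEET16 and SWEET17, chosen by locus in the probe annotation. The series holds 22746 probe sets, and 13286 genes could be named through the probe annotation. Of the 10 members, 9 had a probe set, 1 for each gene. SWEET12 is not listed in the annotation used here and was not analysed. SWEET10 lay near background, so 8 members were tested.

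SWEET proteins let sugars cross a membrane in either direction, down the concentration gradient, and use no proton gradient. In leaves, SWEET11 and SWEET12 release sucrose from phloem parenchyma cells before it is loaded into the phloem, and SWEET13 can also carry sucrose across the plasma membrane. SWEET17, SWEET16 and SWEET2 lie in the tonoplast, the membrane of the vacuole, where SWEET17 passes fructose. SWEET15, also called SAG29, is a marker of leaf senescence. Autophagy delivers cell contents to the vacuole, and Arabidopsis mutants in ATG genes senesce early.

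The mutants were atg5-3 (SALK_02060), called atg5 here, and atg9 (SALK_130796), and both were set against wild-type Col-0. ATG5 belongs to the enzyme complex that attaches ATG8 to membranes, and ATG9 is a membrane protein of the same pathway. Each mutant was represented by 1 allele. Nitrate was supplied at 2 mM (low nitrate, LN) or at 10 mM (high nitrate, HN), in short days of 8 h light. Each RNA came from a pool of more than 6 rosettes. The 8 groups were atg5, atg9 and Col-0 on LN at 60 days, the same genotypes on LN at 30 days, and atg5 and Col-0 on HN. Each group had 2 Affymetrix arrays, from 2 cultures grown months apart. The age of the HN plants was given as 30 days in the sample titles and the design summary and as 60 days in other labels.

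The signal is a MAS5 intensity on a linear scale, and the median signal of an array was 154 to 254. The Col-0 array at 30 days on LN from culture 1 stood apart in its dim probe sets: its lower quartile was 89.3, and those of the other 15 arrays were 26.6 to 39. The atg5 array at 60 days on LN from culture 1 also stood apart, with an actin 3' to 5' signal ratio of 9.05 against 1.5 to 3.04. ATG5 and ATG9 are not in the annotation used here, so the mutations were not checked on the arrays. RCA (Rubisco activase), the 1 leaf marker of 5 with a probe set, read 17246.3 to 31078.3 over the 16 arrays. Of the 5 phloem markers only OPS had a probe set, at 0.8 to 29.4. The 5 flower and 4 seed markers had no probe set in the annotation used here.

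Across 15 comparisons and 8 members, 4 of 120 tests passed, in 3 genes. SWEET17, the fructose carrier of the tonoplast, fell with age in atg5 and in atg9. It was lower at 60 days in Col-0 as well, without passing. SWEET1, a glucose carrier of the plasma membrane, fell with age in atg5. For neither gene did the age change of a mutant pass against that of Col-0 in these tests. SWEET2, a tonoplast glucose carrier, was higher in 60-day atg5 than in 60-day Col-0 plants. A test passed when its Benjamini-Hochberg adjusted p, over all 13648 probe sets tested with limma, was below 0.05. Of the 120 tests, 21 had an unadjusted p below that value. Over all probe sets, 0% to 25.9% passed in a comparison, and 1.09% to 39.3% had such an unadjusted p. Differences are log2 values of the mutant minus Col-0, of 60 minus 30 days, or of LN minus HN, with n = 2 arrays per group. Where groups of 2 arrays are said not to overlap, this describes the arrays and is not a test. The share of all probe sets without overlap was not counted. The levels plot holds the values behind every comparison.

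**Figure D1:**
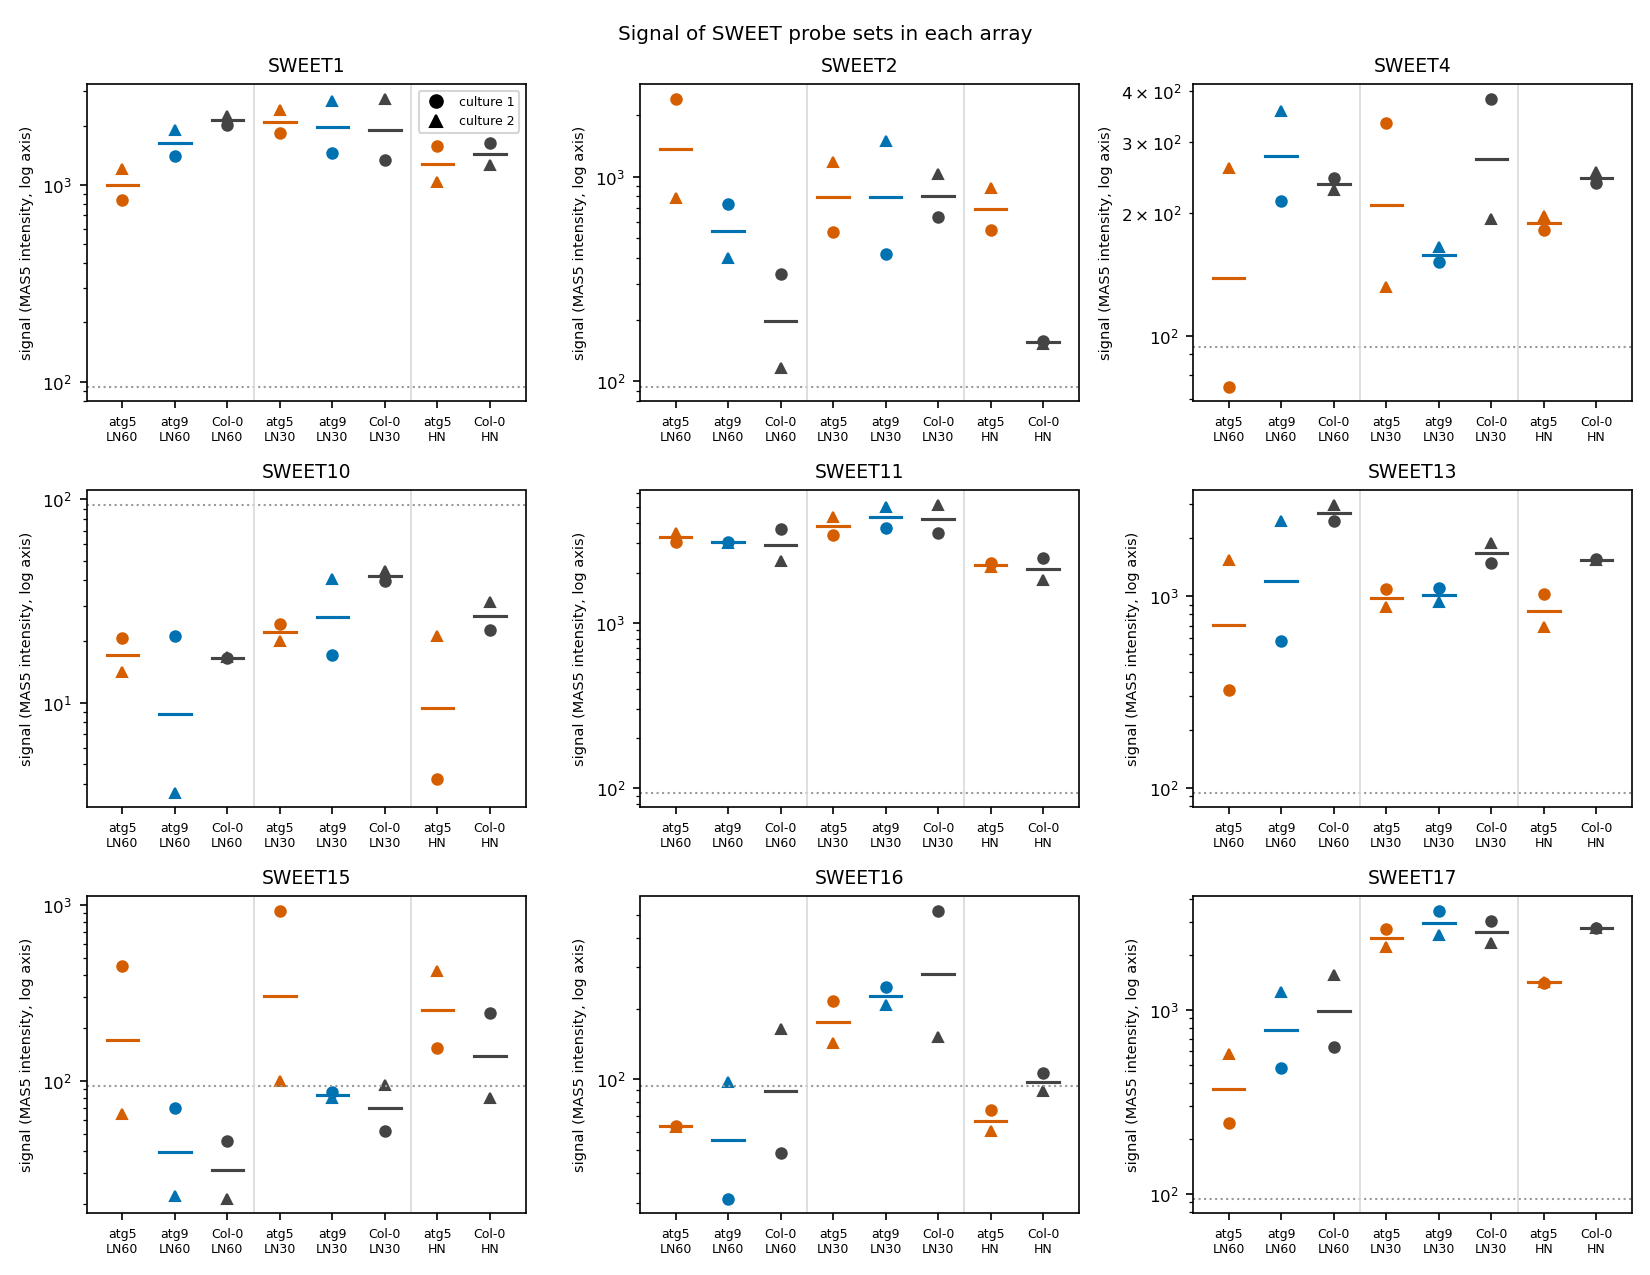
Signal (MAS5 intensity, log axis) of each SWEET probe set on every array, by group (LN60 and LN30 are low nitrate at 60 and 30 days, HN is high nitrate). Circles are culture 1, triangles are culture 2, horizontal lines are geometric means of 2 arrays, and the dotted line is the filter at 93.9. SWEET17 is at most 1541.6 in the 60-day LN samples and at least 2213.1 in the 30-day LN samples, and all SWEET10 points lie under the filter.

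SWEET17 (AT4G15920, probe set 245524_at) had the clearest pattern with age. At 60 days its signal was 242.5 and 576.7 in atg5, 486.9 and 1257 in atg9, and 629.4 and 1541.6 in Col-0, for cultures 1 and 2. In 30-day LN plants it was 2746.3 and 2213.1 in atg5, 3461.9 and 2545.1 in atg9, and 3066.1 and 2316.3 in Col-0. Every 60-day LN array was thus below every 30-day LN array. In atg5 SWEET17 was 6.59-fold lower at 60 than at 30 days (log2 difference -2.72 ± 0.48 SE, 95% interval -3.76 to -1.68, limma adjusted p = 0.00281), and in atg9 it was 3.79-fold lower (-1.92 ± 0.48, interval -2.97 to -0.88, limma adjusted p = 0.0156). In Col-0 the difference was -1.44 (interval -2.48 to -0.39), which did not pass (limma adjusted p = 0.0708). The differences in cultures 1 and 2 were -3.50 and -1.94 in atg5, -2.83 and -1.02 in atg9, and -2.28 and -0.59 in Col-0.

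Whether SWEET17 changed more with age in the mutants was tested directly. The change in atg5 minus that in Col-0 was -1.28 (interval -2.76 to 0.19, limma adjusted p = 0.41), and the change in atg9 minus that in Col-0 was -0.49 (limma adjusted p = 0.989), so neither difference passed. At 60 days SWEET17 was 1.40 log2 units below Col-0 in atg5, with -1.38 in culture 1 and -1.42 in culture 2 (limma adjusted p = 0.104). Without the atg9 array of culture 1 at 30 or at 60 days, the atg9 ageing difference was -1.47 and -1.34 and no longer passed (limma adjusted p = 0.125 and 0.168). The atg5 ageing difference passed under all 22 alternatives run, at -3.24 to -2.20 when any single array was left out. None of these alternatives let the difference between the cultures change with age. Without both arrays that stand apart it was -2.26 (limma adjusted p = 0.0322).

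The cultures shifted SWEET17 in a way that depended on the harvest. The labels name no harvest: LN at 60 days, LN at 30 days and HN were each taken as a harvest. HN was kept apart from LN at 30 days, although some labels give both the same age. At 60 days culture 2 exceeded culture 1 by 1.25 in atg5, 1.37 in atg9 and 1.29 in Col-0. In 30-day LN plants it differed by -0.31, -0.44 and -0.40, and on HN by 0.02 in atg5 and -0.01 in Col-0. The genotypes thus shared the shift within a harvest, and the 60-day shift was opposite in sign to that at 30 days. Over all 13648 probe sets a shift was shared within a harvest and not between harvests: culture differences correlated at 0.257 to 0.686 in the 7 pairs of groups from the same harvest, and at -0.159 to 0.151 (median -0.0977) in the 21 pairs from different harvests. The design gave the fit a single culture term, which could not follow this. Ages were compared between harvests, so a shift shared within a harvest enters the age differences of every genotype. The limma p-values for age treat it as spread that is independent between arrays.

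**Figure D2:**
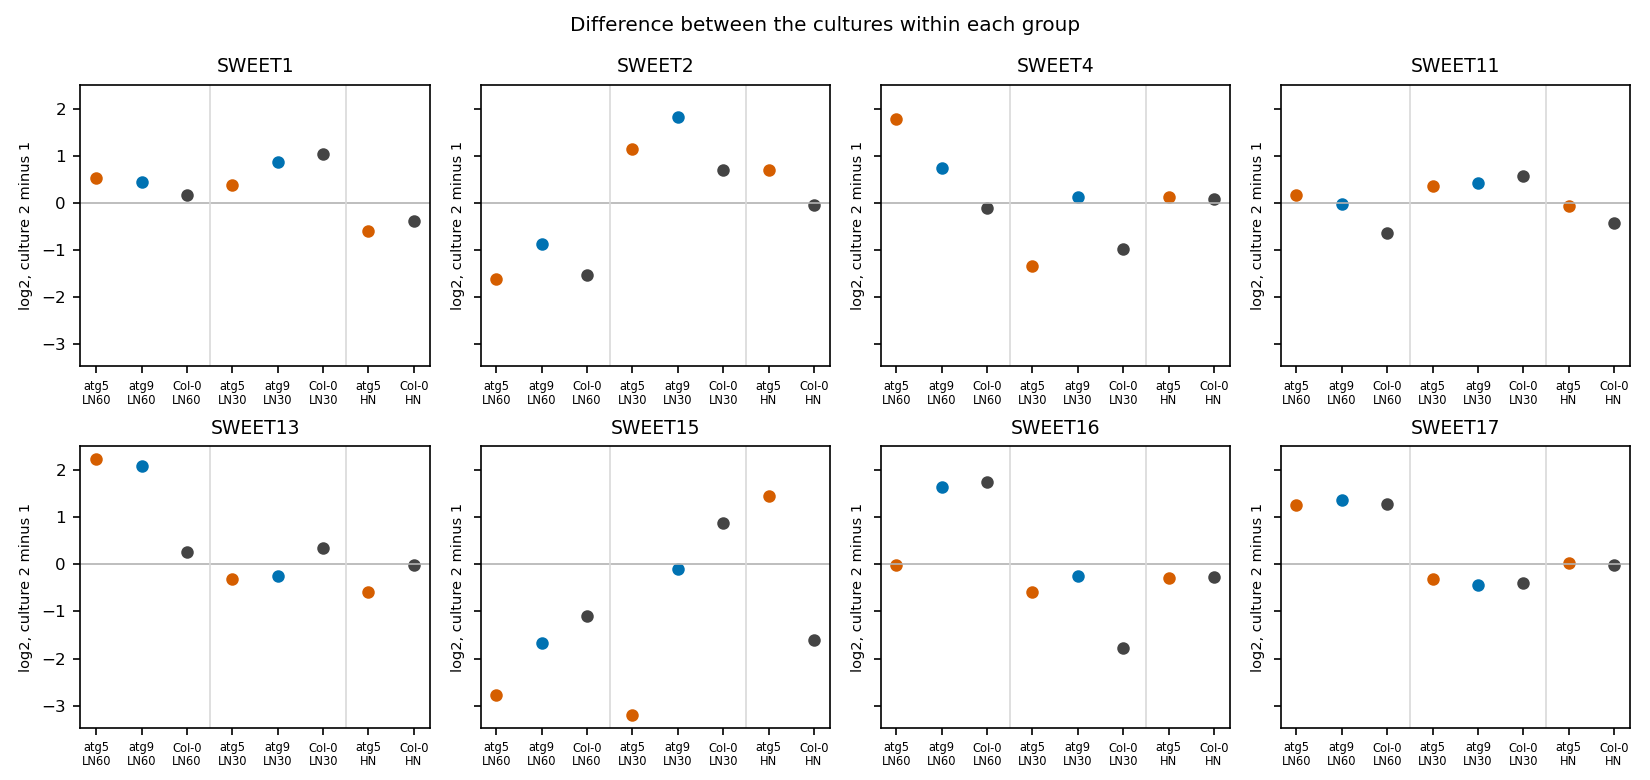
Difference between the cultures (culture 2 minus culture 1, log2 signal) in each group for the 8 tested SWEET genes, with vertical lines between the 60-day LN, 30-day LN and HN groups. SWEET17 sits together within a harvest. SWEET17 and SWEET2 change sign between 60 and 30 days, and SWEET2 spreads from 0.70 to 1.83 at 30 days. SWEET13 is near 2 in the 60-day mutants and 0.27 in Col-0.

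An alternative fit gave each harvest its own culture term. It was chosen after seeing the data and leaves 5 residual degrees of freedom, against 7. In it SWEET17 at 60 days was lower in atg5 than in Col-0 (-1.40 ± 0.17 SE, limma adjusted p = 0.000358), lower in atg5 on HN (-0.98, limma adjusted p = 0.0114) and changed more with age in atg5 than in Col-0 (-1.28, limma adjusted p = 0.0152). At 60 days SWEET17 was also higher in atg9 than in atg5 (1.06, limma adjusted p = 0.0407). On HN the arrays read 1407.4 and 1428.9 in atg5, against 2811.1 and 2794.3 in Col-0, so the groups did not overlap. In 30-day LN plants the atg5 difference was -0.11. Without both arrays that stand apart, the first 3 of these SWEET17 values passed in this fit as well (limma adjusted p = 0.00124, 0.00307 and 0.0287), and atg9 minus atg5 did not.

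SWEET16 (AT3G16690, 258421_at) is the nearest relative of SWEET17 and also a tonoplast carrier. At 60 days it read 63.6 and 63 in atg5, 31.1 and 97.8 in atg9, and 48.8 and 163.2 in Col-0. The 30-day LN arrays read 215.8 and 143.1 in atg5, 245.7 and 207.3 in atg9, and 519.3 and 151.3 in Col-0. On LN the ages did not overlap within either mutant, and they did in Col-0. The HN arrays read 74.1 and 60.2 in atg5, and 106.5 and 88.9 in Col-0. LN at 30 days minus HN was 1.40 in atg5 and 1.53 in Col-0, and neither passed (limma adjusted p = 0.213 and 0.185). The 60 minus 30 day differences were -1.47 in atg5, -2.03 in atg9 and -1.65 in Col-0, and none passed (limma adjusted p = 0.141, 0.0575 and 0.137). The Col-0 value rests on the 30-day array of culture 1 that stands apart, since it was -3.41 in culture 1 and 0.11 in culture 2, and -0.62 without that array. Without the other 30-day Col-0 array it was -2.68 and passed (limma adjusted p = 0.0303). The atg9 value passed in 7 of 22 alternatives, among them quantile normalization (-2.11, limma adjusted p = 0.0454) and the fit without both arrays that stand apart (limma adjusted p = 0.0352). It was -1.10 without the 60-day atg9 array of culture 1 (limma adjusted p = 0.42) and -2.96 without that of culture 2 (limma adjusted p = 0.0381).

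SWEET2 (AT3G14770, 256548_at), a tonoplast carrier best known from roots, differed between atg5 and Col-0 in old rosettes. At 60 days it read 2393.4 and 784.3 in atg5, 733.3 and 400 in atg9, and 333 and 115.7 in Col-0. All atg5 and atg9 arrays were above both Col-0 arrays. SWEET2 was 6.98-fold higher in atg5 than in Col-0 (log2 difference 2.80 ± 0.72 SE, interval 1.23 to 4.38, limma adjusted p = 0.0439), with 2.85 in culture 1 and 2.76 in culture 2. In atg9 the difference was 1.46 (interval -0.11 to 3.04, limma adjusted p = 0.999), with 1.14 and 1.79 in the cultures. On HN the arrays read 545.6 and 878.7 in atg5, against 158.2 and 152.4 in Col-0, a difference of 2.16 that did not pass (limma adjusted p = 0.365).

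In 30-day LN plants the genotypes overlapped in SWEET2, with 534.7 and 1183.9 in atg5, 420.7 and 1494.9 in atg9, and 632 and 1023.6 in Col-0. The difference from Col-0 was -0.02 in atg5 and -0.02 in atg9, with intervals of -1.59 to 1.56 and -1.59 to 1.55. Between the ages the sign in the cultures disagreed in both mutants (atg5 2.16 and -0.59, atg9 0.80 and -1.90), while Col-0 was lower at 60 days in both (-0.92 and -3.15). The age change in atg5 minus that in Col-0 was 2.82 ± 1.02 SE (limma adjusted p = 0.251).

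The SWEET2 call at 60 days was lost in 13 of the 22 alternatives that had no culture term for each harvest. Leaving out the 60-day atg5 array of culture 1 gave 1.86 (limma adjusted p = 0.39), leaving out the 60-day Col-0 array of culture 2 gave 1.91 (limma adjusted p = 0.277), and the value was 1.90 without both arrays that stand apart (limma adjusted p = 0.355). With a culture term for each harvest, the added alternative, SWEET2 passed at 60 days in atg5 (2.80 ± 0.30 SE, limma adjusted p = 0.000185) and in atg9 (limma adjusted p = 0.0326). There it also passed on HN in atg5 (limma adjusted p = 0.00451) and in the age change of atg5 minus Col-0 (limma adjusted p = 0.00687). Without both arrays that stand apart, these 4 SWEET2 values also passed in that fit, with 2.60 in atg5 at 60 days (limma adjusted p = 0.00113).

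**Figure D3:**
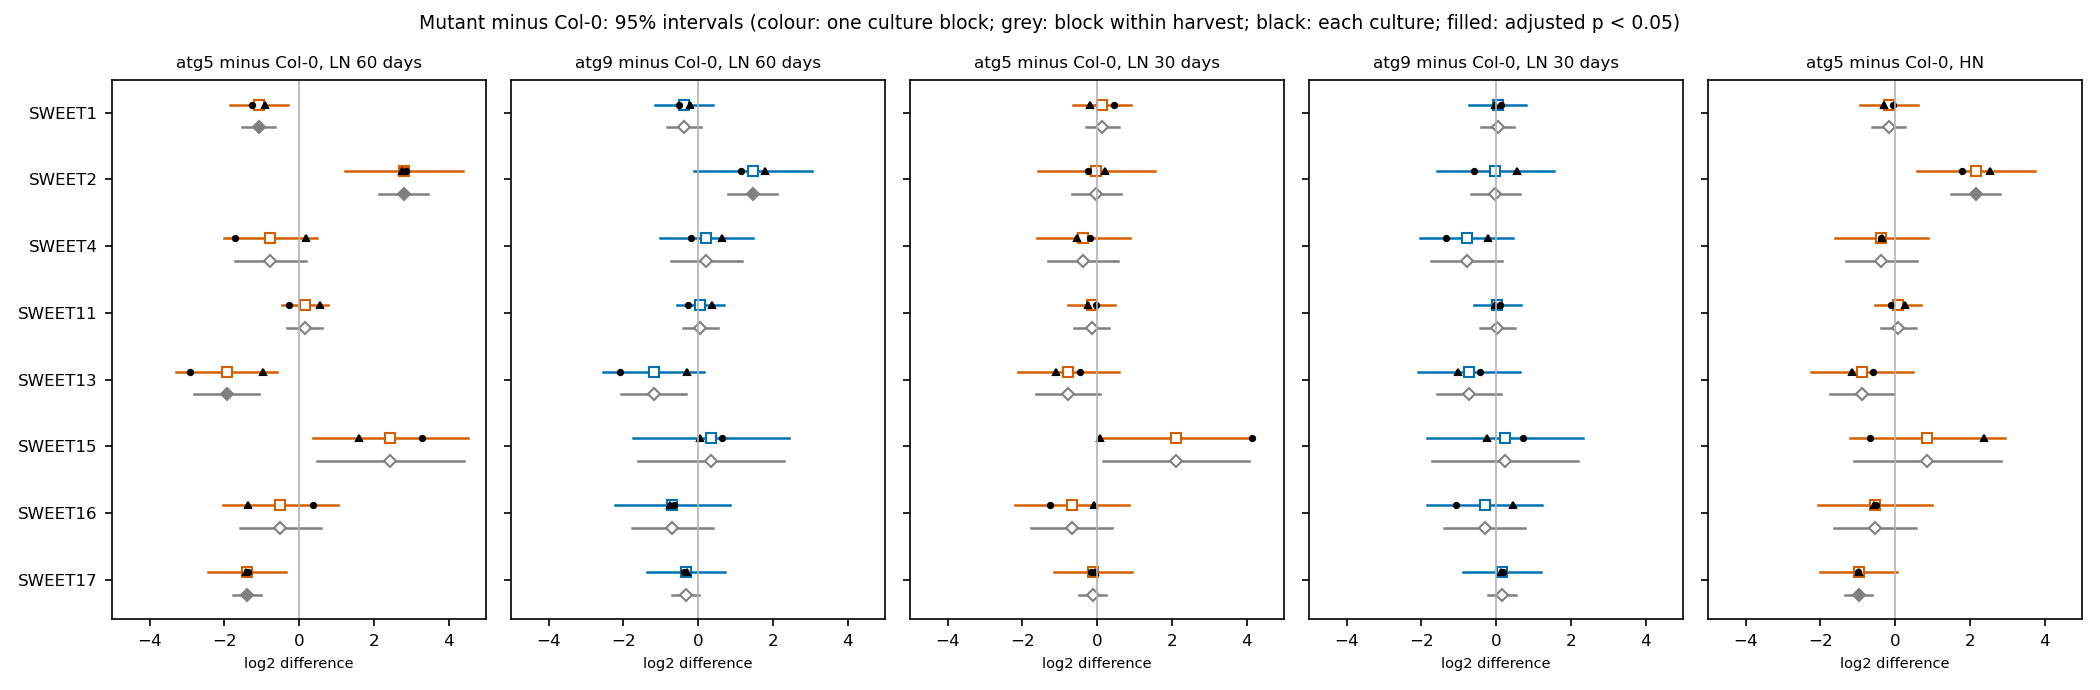
Log2 difference of each mutant from Col-0 for the 8 tested SWEET genes in 5 comparisons, with 95% intervals (coloured squares, a single culture term; grey diamonds, a culture term for each harvest; filled symbols, adjusted p below 0.05). Black circles and triangles are the differences in cultures 1 and 2. At 60 days SWEET2 lies at 2.80 in atg5, and at 30 days no SWEET gene is filled in either mutant.

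Of the sucrose carriers of the plasma membrane, SWEET11 (AT3G48740, 252327_at) had the smallest standard error, 0.29. At 60 days it read 3074.2 and 3460.6 in atg5, 3077.2 and 3034.1 in atg9, and 3677.6 and 2341.1 in Col-0. The 30-day LN arrays read 3383.9 and 4319.2 in atg5, 3718.6 and 5000.5 in atg9, and 3475.5 and 5120.3 in Col-0. The genotypes overlapped at both ages, and the differences between mutant and Col-0 lay between -0.14 and 0.15. On HN SWEET11 read 2278.5 and 2168.4 in atg5, and 2442.7 and 1815.9 in Col-0. These values lay below every LN array, except that the higher Col-0 value on HN exceeded the lower of Col-0 at 60 days. LN at 30 days minus HN gave 0.78 in atg5 and 1.00 in Col-0, neither of which passed (limma adjusted p = 0.0951 and 0.0526). The Col-0 value passed after quantile normalization (1.03, limma adjusted p = 0.0344) and with no culture term (limma adjusted p = 0.0493).

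SWEET13 (AT5G50800, 248467_at) was lower in both mutants at 60 days in each culture, but no such value passed. At 60 days it read 324.6 and 1533.1 in atg5, 579.1 and 2444.5 in atg9, and 2472.4 and 2982.1 in Col-0. Each mutant array was below both Col-0 arrays. The difference from Col-0 was -1.94 ± 0.62 SE in atg5 (limma adjusted p = 0.0871) and -1.19 in atg9 (limma adjusted p = 0.999). The atg5 value was -2.93 in culture 1, which holds the atg5 array with the actin ratio of 9.05, -0.96 in culture 2, and -0.92 without both arrays that stand apart.

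At 30 days SWEET13 read 1084.4 and 874.8 in atg5, 1098.1 and 926.7 in atg9, and 1478.6 and 1880.6 in Col-0. On HN it read 1022.2 and 685 in atg5, against 1550.9 and 1534.1 in Col-0. Both mutants at 30 days, and atg5 on HN, lay below Col-0 without overlap. The differences were -0.78 in atg5 and -0.73 in atg9 at 30 days, and -0.88 in atg5 on HN. None of these passed (limma adjusted p = 0.793, 0.872 and 0.823). With a culture term for each harvest the 60-day difference of SWEET13 in atg5 passed (limma adjusted p = 0.00757), though not when both arrays that stand apart were left out (-1.41, limma adjusted p = 0.078). SWEET10 (AT5G50790, 248496_at), a sucrose carrier known from inflorescences, is the chromosomal neighbour of SWEET13. Its 16 signals were 3.6 to 44.5, with a geometric mean of 18.8, and it was left out of the tests.

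SWEET15 (AT5G13170, 245982_at), the senescence marker, had the widest range of group means, 9.68-fold, and the poorest agreement between cultures. At 60 days it read 446.3 and 65 in atg5, 70.8 and 22.4 in atg9, and 45.9 and 21.5 in Col-0. The 30-day LN arrays read 920.9 and 100.5 in atg5, 86.2 and 80.6 in atg9, and 52.3 and 95.4 in Col-0. At both ages atg5 lay above Col-0 without overlap, its high values came from culture 1, and atg9 overlapped Col-0. On HN the high values were 418.4 in atg5 (culture 2, with 153.2 in culture 1) and 242.2 in Col-0 (culture 1, with 79.9 in culture 2). The atg5 minus Col-0 difference was 2.44 ± 0.95 SE at 60 days (limma adjusted p = 0.148) and 2.11 at 30 days (limma adjusted p = 0.70), where it was 4.14 in culture 1 and 0.08 in culture 2. With age SWEET15 gave -0.84 in atg5, -1.07 in atg9 and -1.17 in Col-0, none of which passed.

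Of the hexose carriers of the plasma membrane, SWEET1 (AT1G21460, 260876_at) passed with the single culture term only with age in atg5. At 60 days it read 839.2 and 1200.6 in atg5, 1407.6 and 1910 in atg9, and 2014.3 and 2245.3 in Col-0. The 30-day LN arrays read 1839.7 and 2397.2 in atg5, 1458.8 and 2658.2 in atg9, and 1335.8 and 2737.2 in Col-0. On LN at 60 days the 3 genotypes did not overlap, and at 30 days they did. The HN arrays read 1571.1 and 1035.1 in atg5, and 1637.4 and 1261.7 in Col-0. With age SWEET1 fell in atg5 (-1.06 ± 0.35 SE, interval -1.84 to -0.29, limma adjusted p = 0.0448), by a like amount in both cultures (-1.13 and -1.0). In atg9 the difference was -0.26 and in Col-0 0.15, with intervals of -1.04 to 0.51 and -0.62 to 0.93.

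The SWEET1 change with age in atg5 minus that in Col-0 was -1.22 ± 0.50 SE and did not pass (limma adjusted p = 0.303). At 60 days atg5 minus Col-0 was -1.08 (limma adjusted p = 0.0927). The ageing call was lost in 12 of 22 alternatives, with -0.88 (limma adjusted p = 0.178) without both arrays that stand apart and limma adjusted p = 0.0606 without the culture block. With a culture term for each harvest, SWEET1 passed at 60 days in atg5 (limma adjusted p = 0.00514) and in the age change of atg5 minus Col-0 (limma adjusted p = 0.0428). Without both arrays that stand apart, this fit gave limma adjusted p = 0.022 at 60 days and 0.155 for the age change.

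SWEET4 (AT3G28007, 257271_at), a hexose carrier of leaf veins, gave no passing value. Its 60-day signals were 74.9 and 258.2 in atg5, 214.8 and 355.7 in atg9, and 244.8 and 228.5 in Col-0. The 30-day LN arrays read 332.9 and 132.1 in atg5, 151.4 and 164.9 in atg9, and 381.9 and 194 in Col-0. On HN SWEET4 read 182.2 and 197.4 in atg5, against 236.9 and 252.7 in Col-0. Mutant and Col-0 overlapped except for atg9 at 30 days (-0.78, interval -2.03 to 0.46) and atg5 on HN (-0.37, interval -1.62 to 0.88), which lay below Col-0. The atg9 value at 30 days was -1.33 in culture 1 and -0.23 in culture 2. Leaving out the 30-day Col-0 array that stands apart gave -0.20. The range of its group means was 1.99-fold, the narrowest of the 8.

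The members' call counts in the genotype comparisons are given beside the shares of all probe sets tested. With 8 members, a count of 0 or 1 cannot be told from these shares. At 60 days 1 of 8 members passed in atg5, with a higher level, where 5.83% of all probe sets passed and 3.96% were higher, and 0 of 8 in atg9, where 0.044% did. At 30 days limma gave 0 of 8 in atg5 (0% of all) and 0 of 8 in atg9 (0.00733%), and on HN 0 of 8 in atg5 (0.169%). At an unadjusted p below 0.05 the counts of members were 5 in atg5 and 0 in atg9 at 60 days, 1 and 0 at 30 days, and 1 in atg5 on HN, where 23.6%, 4.7%, 7.03%, 5.93% and 8.05% of all probe sets had such a p. The median difference of the 8 members was -0.63 in atg5 at 60 days, against -0.14 over all probe sets. In the other comparisons with Col-0 the members' median lay between -0.27 and 0.01, and that of all probe sets between -0.03 and -0.01. With a culture term for each harvest, 4 of 8 members passed in atg5 at 60 days (16.4% of all), 2 in atg5 on HN (2.86%), 1 in atg9 at 60 days (1.6%) and none at 30 days (0.103% in atg5, 0.0293% in atg9).

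With age, 2 of 8 members passed in atg5, both lower, where 25.9% of all probe sets passed and 13.3% were lower. In atg9 1 of 8 passed, with a lower level, where 22.1% of all passed and 8.61% were lower, and in Col-0 0 of 8, where 11.6% did. At an unadjusted p below 0.05 the counts were 2, 2 and 3 members, with 39.3%, 36.9% and 30.4% of all probe sets. Most members lay below 0 with age, 7 of 8 in atg5, 6 in atg9 and 6 in Col-0. Their medians were -0.71, -0.52 and -0.85, against -0.03, 0.13 and 0.08 over all probe sets. The 8 values of a genotype come from the same arrays, and the genotypes shared cultures and harvests, so these counts are a description. The share of all probe sets below 0 was not counted. The 60-day groups entered both the genotype and the age comparisons. In the age changes between genotypes limma passed 0 of 8 for atg5 minus Col-0 (0.161% of all) and 0 of 8 for atg9 minus Col-0 (0.00733%). At an unadjusted p below 0.05 these counts were 2 and 0, with 14.3% and 4.62% of all probe sets. With a culture term for each harvest they were 3 of 8 (3.99% of all) and 0 of 8 (0.615%).

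**Figure D4:**
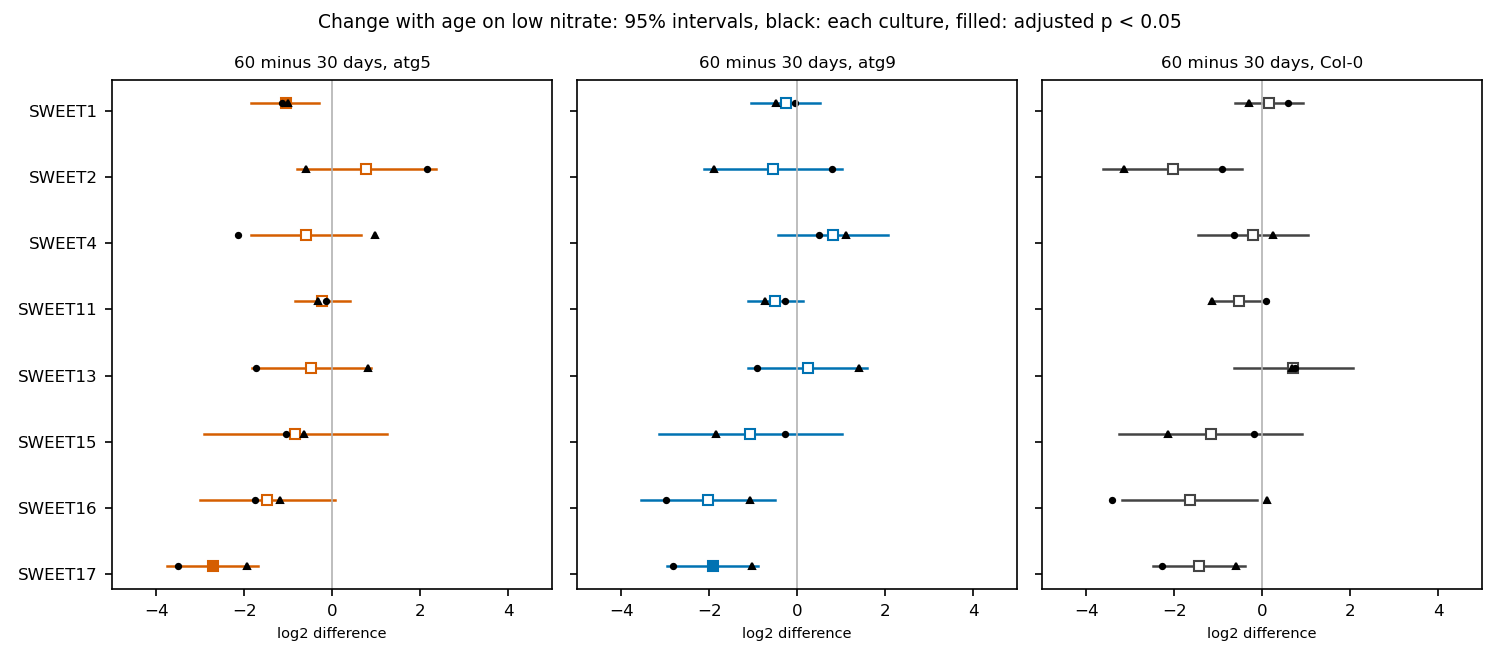
Log2 difference of 60 minus 30 days on low nitrate for the 8 tested SWEET genes in atg5, atg9 and Col-0, with 95% intervals (filled squares, adjusted p below 0.05). Black circles and triangles are the differences in cultures 1 and 2. SWEET17 is lower at 60 days in both cultures of all 3 genotypes, and SWEET1 is filled in atg5.

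The nitrate comparison set LN at 30 days against HN, and because the labels disagree on the age of the HN plants, nitrate and age cannot be told apart in it. No member passed in atg5 (12.4% of all probe sets did) or in Col-0 (8.06%). At an unadjusted p below 0.05 there were 1 member in atg5 and 2 in Col-0, with 29% and 27.2% of all probe sets. All 8 members lay above 0 in atg5, at 0.15 to 1.40, and 6 of 8 in Col-0. The members' medians were 0.49 in atg5 and 0.28 in Col-0, against 0.01 and 0.02 over all probe sets. The 8 values of a genotype come from the same arrays, so this count is a description. The share of all probe sets above 0 was not counted. SWEET2 gave 0.20 in atg5 (interval -1.37 to 1.77) and 2.37 in Col-0 (interval 0.80 to 3.95, limma adjusted p = 0.0608), and the difference between these, -2.17, did not pass (limma adjusted p = 0.88). For that difference 0 of 8 members and 0% of all probe sets passed, and 0 members had an unadjusted p below 0.05 (5.74% of all). A culture term for each harvest gave 0 of 8 as well (0.191%).

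With LN at 60 days, the other age in the labels, the SWEET17 estimates lay below HN, but neither passed. LN at 60 days minus HN was -1.92 in atg5 (limma adjusted p = 0.164) and -1.51 in Col-0 (limma adjusted p = 0.233), against 0.80 and -0.07 for LN at 30 days minus HN. In Col-0, the SWEET17 estimate was thus below HN in the 60-day LN plants and close to HN in the 30-day LN plants. SWEET16 and SWEET2 went the other way in Col-0. They lay at -0.12 and 0.34 with LN at 60 days, and at 1.53 and 2.37 with LN at 30 days. The age of the HN plants was not tested. SWEET11 was above HN at either age, at 0.55 in atg5 and 0.48 in Col-0 for 60 days. No member passed with LN at 60 days in atg5 (0.0659% of all probe sets) or in Col-0 (0.535%), nor in the difference between them (0%).

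**Figure D5:**
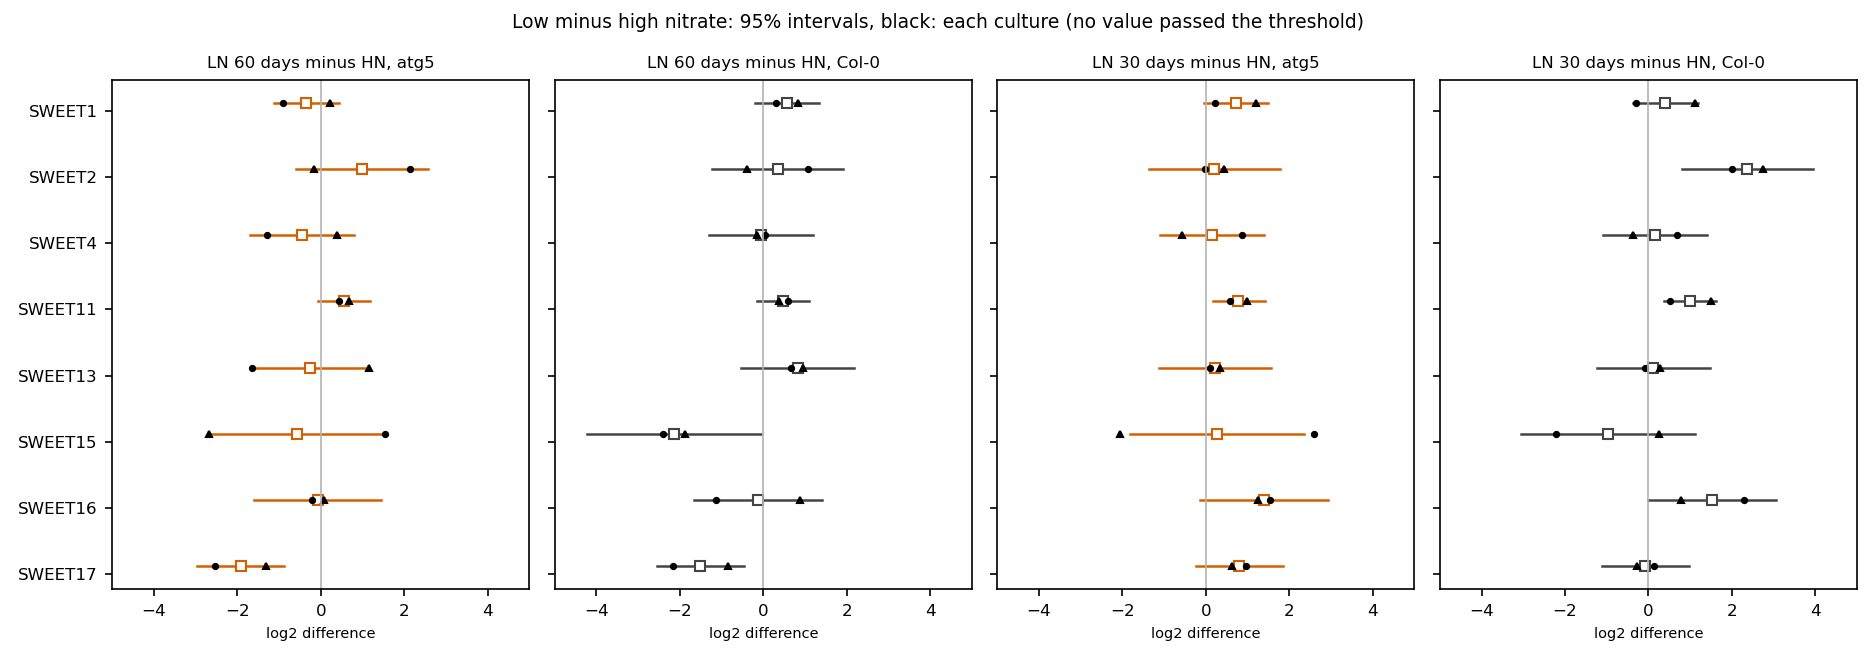
Log2 difference of low minus high nitrate for the 8 tested SWEET genes in atg5 and Col-0, with LN at 60 days (left pair) and at 30 days (right pair), and 95% intervals. Black circles and triangles are the differences in cultures 1 and 2. In Col-0, SWEET17 lies at -1.51 with the 60-day plants and at -0.07 with the 30-day plants, and SWEET16 at -0.12 and 1.53. No value passed the test.

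The mutants were also compared with each other. At 60 days atg9 minus atg5 was 1.06 for SWEET17 (limma adjusted p = 0.624) and -2.10 for SWEET15 (limma adjusted p = 0.625), the 2 members with an unadjusted p below 0.05 (7.91% of all). No member passed at 60 or at 30 days, where 0.00733% of all probe sets passed in each. At 30 days no member had an unadjusted p below 0.05 (1.09% of all). A culture term for each harvest gave 1 member, SWEET17, at 60 days (0.132% of all) and 0 at 30 days (0.00733%). Within each gene the 8 group means could mostly not be ranked: a gap between neighbours in the order exceeded the half-width of its 95% interval only for SWEET17, where atg5 at 60 days lay 1.06 below atg9 at 60 days (half-width 1.04). The arrays of these 2 groups overlapped, and the gap was 0.55 without the atg5 array of culture 1 at 60 days, 0.48 without the atg9 array of culture 2 at 60 days, and 1.65 without that of culture 1. The group with the highest mean was not separated from the next by this measure for any of the 8 genes.

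Other genes of sugar transport and metabolism moved in both directions with age. Of 27 hexose and vacuolar carriers 11 had a probe set and 8 were tested. STP3, a hexose carrier of the plasma membrane, rose with age in all 3 genotypes (1.55 in atg5, 2.66 in atg9, 1.81 in Col-0). SFP1, a carrier of the ERD6-like family, was higher in 60-day atg5 than in 60-day Col-0 plants (1.95, limma adjusted p = 0.00393) and fell with age in Col-0 (-1.17). SFP2 fell with age in atg5 (-1.33) and atg9 (-1.41), and VGT2 (-1.05) and SUGTL (-0.86) fell in atg5. With age 1 of the 8 was higher and 3 lower in atg5 (25.9% of all probe sets passed), 1 and 1 in atg9 (22.1%), and 1 and 1 in Col-0 (11.6%).

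Against HN, LN at 30 days gave lower STP3 (-1.75 in atg5, -1.46 in Col-0) and higher SFP2 (1.31 and 1.36), and higher SUGTL in atg5 (1.00). CWINV6, a cell wall hydrolase of the invertase family and 1 of 2 tested genes of its list of 12, was higher in 60-day atg5 than in 60-day Col-0 plants (2.67, limma adjusted p = 0.0173). It rose with age in atg5 (2.96) and atg9 (2.59), and was lower on LN at 30 days than on HN in atg5 (-2.51). SPP2, a sucrose-phosphate phosphatase and 1 of 2 tested of 12, fell with age in atg5 (-1.10). APL3, the 1 tested sugar-responsive gene of 12, passed in no comparison (-2.39 in atg5 at 60 days, limma adjusted p = 0.0579). The 9 SUC sucrose carriers have no probe set in the annotation used here.

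The other senescence genes were read beside SWEET15, and 4 of 13 were tested. WRKY6, a transcription factor of senescence, rose by 2.37 in atg5, 1.99 in atg9 and 1.49 in Col-0. Its 30-day LN arrays read 37.4 to 67.3, all below the filter of 93.9. The geometric mean of WRKY6 over all arrays was 96, so the size of its rise rests on dim 30-day signals. PPDK, pyruvate orthophosphate dikinase, rose by 2.14 in atg5, 2.05 in atg9 and 1.36 in Col-0. SAG101 rose in atg5 (1.27) and atg9 (1.61), and WRKY53 passed in no comparison (2.59 with age in atg5, limma adjusted p = 0.0724). SWEET15 was below 0 with age in all 3 genotypes (-0.84, -1.07 and -1.17), with standard errors of 0.95. Its 60-day arrays in atg9 and Col-0 read 21.5 to 70.8, below the filter as well. The difference between SWEET15 and these genes was not tested.

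Of 5 root markers only PYK10, a beta-glucosidase of the ER bodies, had a probe set, at 228.3 to 1310.6. PYK10 fell with age in atg5 (-1.21, limma adjusted p = 0.0283) and atg9 (-1.64, limma adjusted p = 0.00913) and gave -1.13 in Col-0 (limma adjusted p = 0.0619), the same direction as SWEET17. It was also higher on LN at 30 days than on HN in atg5 (2.11) and in Col-0 (1.59). Its part in the SWEET differences with age and nitrate was not tested. In whole rosettes, fewer cells of a type and less RNA per cell cannot be told apart.

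The genes whose signals over the 16 arrays followed each member most closely were sought among 7319 other tested probe sets with a single gene. These correlations describe arrays that share groups, cultures and scaling, and they say nothing of shared function. SWEET17 was nearest to AT4G27700 (Pearson r = 0.984), AT2G43550 (0.975) and AT5G61660 (0.955). SWEET13 was nearest to AT4G14090 (0.929), UF3GT (0.923) and AT5MAT (0.919), which are enzymes that attach sugars and malonyl groups to anthocyanins. SWEET1 was nearest to AT1G70550 (0.895), AT5G58530 (0.893) and UGT78D1 (0.893), a flavonol glycosyltransferase. SWEET11 was nearest to AT3G52360 (0.93), SWEET16 to AT4G39235 (0.924), SWEET15 to AT2G41190 (0.865), SWEET2 to AT5G38830 (0.856) and SWEET4 to AT1G50630 (0.803).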

How the data were processed

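Intensity values of 22810 probe sets on 16 arrays were deposited in a single table. Per the submitters' processing notes the tool was MAS5, with no version named. Each array's mean intensity after trimming 2% at each end was 500 to 500.1, so the arrays had been scaled to a common mean. The table holds no detection calls, and the number of arrays limits the precision. The 64 control probe sets were set aside, intensities below 1 were set to 1, and log2 was taken. The 13648 probe sets with a mean log2 intensity at or above the 40th percentile (a geometric mean of 93.9) were tested. Limma 3.58.1 in R 4.3.3 (lmFit, eBayes with trend) fitted 8 group means and a culture term over all arrays. Tests were two-sided, Benjamini-Hochberg adjusted over all 13648 probe sets, with a threshold of 0.05, and intervals are 95%. The fit was tested on simulated data.

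Probe sets were named through GEO's platform annotation, by gene ID to a RefSeq locus (13513 with 1 gene, 503 with several, 8730 not listed). Every member was named, with the 3 probe sets nearest to it by correlation, and of the other lists each gene that passed, and otherwise up to 4 with the smallest p. Members and lists were chosen with earlier results of these data known. Replicate numbers are culture numbers in the labels, and culture was therefore a block. Its differences correlated at -0.159 to 0.686 over 28 pairs of groups (median -0.0657, 8 above 0.1). Where the labels do not say that plants differ beyond the culture, p-values measure the spread between these arrays. Alternatives were quantile normalization, 32 added to the signals, no filter, no block, no trend, LN at 60 days against HN, leaving out each array or both arrays that stand apart, and, added after seeing the data, a culture term for each harvest.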

Additional observations from a re-analysis of the deposited data

How the results depend on the processing

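Under the alternatives run, none of the 21 SWEET values with an unadjusted p below 0.05 changed sign. The SWEET17 decline with age in atg5 passed in all 22 alternatives, none of which had a culture term for each harvest. Leaving out each array in turn, the number of members passing ran from 0 to 3 for atg5 at 60 days (1 with all arrays), 1 to 2 for age in atg5 (2), 0 to 2 in atg9 (1), 0 to 1 in Col-0 (0), 0 to 1 for LN at 30 days minus HN in Col-0 (0), and was 0 in the other 10 comparisons. Such fits leave a group with 1 array, assumed to vary like the other groups. Without the array trend, 0 passed for atg5 at 60 days and 1 for age in atg5. Without the filter 1 passed for age in atg5. Without both arrays that stand apart the counts were 0 for atg5 at 60 days, 1 for age in atg5 and 2 for age in atg9. After quantile normalization they were 2 for age in atg9, with SWEET16 (its median over all probe sets moved by -0.14), and 1 for LN at 30 days minus HN in Col-0, with SWEET11. With 32 added to the signals, and with LN at 60 days against HN, no count moved.

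Without the replicate block, 1 member passed for age in atg5 and 1 for LN at 30 days minus HN in Col-0, and the block changed no other count. The culture term for each harvest, chosen after seeing the data, gave 4 members for atg5 at 60 days, 2 for atg5 on HN, 1 for atg9 at 60 days, 3 for the age change of atg5 minus Col-0 and 1 for atg9 minus atg5 at 60 days. Without both arrays that stand apart as well, it gave 4 (SWEET16 in place of SWEET13), 2, 1, 2 and 0. The cause of these moves was not tested. That term was not run for the age and nitrate comparisons within a genotype. The alternative of other probe sets per gene was not run, since each member has 1. With 2 arrays per group, intervals of SWEET15 span about 4 log2 units. SWEET15, SWEET16 and WRKY6 lie near the filter of 93.9, with geometric means of 104, 111 and 96.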

Other observations

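The other 7 SWEET genes of the family with a probe set, SWEET3, SWEET5, SWEET6, SWEET7, SWEET8, SWEET9 and SWEET14, all had geometric means below the filter of 93.9, from 18.9 for SWEET7 to 62 for SWEET5. All 7 had their highest signal on the Col-0 array at 30 days on LN from culture 1, the array with the raised lower quartile. There SWEET9, a nectary sucrose carrier, read 270.9, against at most 60.1 on the other 15 arrays, and SWEET5 read 256.5, against at most 90.3. SWEET16 (519.3) and SWEET4 (381.9) were also highest on that array.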
